A study of Bos taurus with 48 samples.

Results

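The genes described here are the cytokines IL7 and IL15, their receptor chains IL7R and IL15RA, the natural killer (NK) cell receptors KLRF1 and NCR1, and the cytotoxic lymphocyte genes NKG7, PRF1, GZMA and GZMB. These 10 genes were chosen by name among the 20602 gene names, on 21475 probes, of a bovine Agilent oligonucleotide array. The gene name or the bracketed symbol of the array annotation gave 7 probes as written and 8 when upper and lower case were treated alike, and RefSeq gene numbers and accessions raised this to 12 probes. Of these, 8 probes of 6 genes passed the filter on low signal and were tested. The probes of IL7R, IL15RA, KLRF1 and NCR1 did not pass it and are described without being counted.

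IL7 and IL15 are cytokines of the common gamma chain family, which signal through JAK kinases and STAT5 and sustain lymphocytes. IL7 supports the survival of T cells, and IL15, which is presented to neighbouring cells on IL15RA, supports the survival and activation of NK cells. Uterine NK cells gather in the endometrium of many mammals around implantation. Perforin and the granzymes are the proteins of their cytotoxic granules, which they share with cytotoxic T cells.

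Endometrium was taken on day 17 of the reproductive cycle from 22 Holstein-Friesian dairy cows whose cycles had been synchronised. On day 7, 12 of them had received an embryo and were pregnant, and the other 10 were cyclic. Caruncular endometrium, where the conceptus later attaches, and the glandular intercaruncular endometrium were both sampled from each cow, which gave 44 samples. The pregnant cows carried a large embryo in 7 cases and a small embryo in 5, and 6 were labelled fertile and 6 sub-fertile. The large embryos came from 3 fertile and 4 sub-fertile cows, and the small embryos from 3 fertile and 2 sub-fertile cows. The ages of the cows are not given in the sources used here. Each level below is the log2 ratio of a sample (Cy5) to a pool of all samples (Cy3) on the same array, so that 0 is the level of the pool. Levels are given for the groups as lowest, median and highest cow.

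The 4 samples hybridised on a second array (caruncular tissue of 1 pregnant and 3 cyclic cows) gave an SD between arrays of 0.10 for IL7, 0.06 for IL15, 0.04 for NKG7 and 0.09 for PRF1 on the log2 scale. The SD between cows of one state in caruncular tissue was 0.70 and 0.74 for IL7 and 0.33 and 0.32 for PRF1, so most of the spread lay between cows. The median share of spots well above background was 70.0% to 72.65% in the 4 groups of tissue and state. The arrays lay on 12 slides of 4, and most slides held cows of a single state and tissue, so that state was compared within a slide for few cows. The caruncular and intercaruncular samples lay on different slides and scan dates, except for cows Pregnant_9790 and Non-Pregnant_9786 (cows are given as the labels name them, and cyclic cows are there called non-pregnant). Pregnancy and slide are therefore largely confounded, and tissue and slide almost wholly so.

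Printed here are the probes of IL15, which gave a clear signal in every sample, and of the receptors IL7R and KLRF1, whose results depend on the filter. They are shown 5′ to 3′ as the array manufacturer designed them. Capitals mark bases in a reading frame that is open over the whole probe where only 1 of the 3 frames on the printed strand is free of stop codons.
IL15: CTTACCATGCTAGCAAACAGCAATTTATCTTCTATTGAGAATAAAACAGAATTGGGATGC
IL7R: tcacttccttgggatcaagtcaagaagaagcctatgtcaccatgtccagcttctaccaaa
KLRF1: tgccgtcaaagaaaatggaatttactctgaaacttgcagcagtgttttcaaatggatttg
The IL15 probe had a single frame free of stop codons, starting at base 1. The IL7R probe was free of them in all 3 frames and the KLRF1 probe in 2, so nothing is capitalised there. The GC content of the probes was 35.0%, 45.0% and 36.7%. Another probe is described on the array as similar to KLRF1, but RefSeq assigns its gene number to CLECL1, a lectin-like gene of immune cells. The longest run of bases it shares with the KLRF1 probe is 6, and it is not a member.

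GZMA and GZMB each had a pair of probes. For granzyme A, one probe carries the gene number that RefSeq names GZMA and the other the number that RefSeq names gzmA. They are called GZMA and gzmA here. For granzyme B, one probe belongs to the gene RefSeq names GZMB, and the other to a separate, unnamed gene (LOC617313) that the array annotation calls similar to granzyme B, called GZMB-like here. Granzyme genes resemble each other in sequence, and hybridisation of one transcript to the probe of another was not tested.

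Pregnant and cyclic cows were compared to ask how the endometrium responds to the embryo. In caruncular tissue, IL7, IL15, NKG7 and PRF1 were higher in pregnant cows by 1.63-fold to 3.03-fold. In intercaruncular tissue only IL7, at 2.15-fold, passed both the 1.5-fold limit and an adjusted p under 0.05. A probe was called when it passed both, in a limma fit over all 14690 tested probes with Benjamini-Hochberg adjustment. By that rule 4 of 8 member probes were called in caruncular tissue, where 9.99% of all tested probes were called and 5.77% were called higher in pregnant cows. In intercaruncular tissue 1 of 8 was called, where 7.24% of all tested probes were called and 3.99% were called higher. The median log2 difference of the 8 member probes was 0.63 in caruncular and 0.41 in intercaruncular tissue, against −0.04 and −0.01 for all tested probes.

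IL7 showed the largest difference of the tested members. In caruncular tissue its log2 ratio to the pool ran from −0.97 over a median of 0.68 to 1.30 in the 12 pregnant cows, and from −2.10 over −1.32 to 0.30 in the 10 cyclic cows. All 12 pregnant cows lay above the cyclic mean, but the groups overlapped, with 7 pregnant cows above the highest cyclic cow. The difference was 1.60 on the log2 scale (SE 0.29, adjusted p = 0.000403 by limma). In intercaruncular tissue the pregnant cows ran from −1.03 over 0.02 to 0.82 and the cyclic cows from −1.98 over −1.17 to 0.13. The groups overlapped here too, with 6 pregnant cows above the highest cyclic cow, and the log2 difference was 1.10 (SE 0.28, limma adjusted p = 0.00709). The level of IL7 thus fell into an order of caruncular pregnant (mean 0.43, SD 0.74), intercaruncular pregnant (−0.08, SD 0.68), caruncular cyclic (−1.17, SD 0.70) and intercaruncular cyclic (−1.18, SD 0.68). The tissues within a state, neighbours in this order, did not pass the test by limma (adjusted p = 0.132 in pregnant and 0.974 in cyclic cows). That fit did not pair the 2 tissues of a cow.

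IL15 had log2 ratios from −0.65 over 0.20 to 0.80 in caruncular tissue of pregnant cows and from −1.22 over −0.61 to 0.08 in that of cyclic cows. Here 8 pregnant cows lay above every cyclic cow, and the log2 difference was 0.84 (SE 0.18, limma adjusted p = 0.00191). In intercaruncular tissue pregnant cows ran from −0.46 over 0.34 to 0.96 and cyclic cows from −1.27 over −0.28 to 0.31. The log2 difference of 0.56 (SE 0.16) passed the adjusted p by limma (0.0163) but not the 1.5-fold limit, at 1.48-fold. No member separated pregnant from cyclic cows without overlap in either tissue, where 1.89% of all tested probes in caruncular and 1.14% in intercaruncular tissue did.

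The receptor chains gave weaker signals. IL7R, the chain that binds IL7, was well above background on 11 of 13 arrays of caruncular tissue from pregnant cows and 5 of 13 from cyclic cows. In intercaruncular tissue this was 9 of 12 and 5 of 10. Its log2 ratios in caruncular tissue ran from −0.28 over 0.61 to 1.21 in pregnant and from −1.09 over −0.64 to 0.47 in cyclic cows. The log2 difference was 0.97 in caruncular and 0.79 in intercaruncular tissue. These values were not tested by the main rule. No p is given from a fit of all probes well above background, without the minimum of 80 units, since IL7R reached that rule mainly through pregnant cows. IL15RA, which presents IL15, was well above background on 8 of 13 and 3 of 13 arrays of caruncular tissue (pregnant and cyclic) and on 2 of 12 and 5 of 10 of intercaruncular tissue. Its log2 differences were 0.11 and 0.14, at signals near the floor, as it passed the filter in 1 of 44 samples. The median signal of pregnant and cyclic cows was 41.4 and 27.1 units in caruncular tissue. In intercaruncular tissue it was 12.9 and 33.1 units, opposite in direction to the ratio, so no direction is read from this probe there.

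KLRF1 encodes NKp80, an activating receptor of NK cells. It was well above background on 11 of 13 arrays of caruncular tissue from pregnant cows and on 0 of 13 from cyclic cows. In intercaruncular tissue this was 11 of 12 and 2 of 10. The cyclic caruncular group therefore gives only a bound, where pregnant cows were at least 2.44-fold higher in KLRF1. The bound sets their mean log2 signal, 6.38, against a cyclic mean of 5.10. The latter takes, on each array, the higher of the KLRF1 signal and the lowest signal among probes well above background. The measured cyclic mean was 4.66. Without a dye swap this bound is open to dye bias. The log2 ratios in caruncular tissue ran from −1.57 over 0.18 to 1.28 in pregnant and from −3.01 over −1.70 to −0.77 in cyclic cows. No p is given, since the probe reached the background rule mainly through pregnant cows. In intercaruncular tissue the ratios ran from −1.94 over 0.46 to 1.35 and from −1.68 over −1.26 to −0.12. NCR1, which encodes the NK receptor NKp46 and is a defining gene of NK cells, was well above background on 2 of 13 caruncular and 5 of 12 intercaruncular arrays of pregnant cows and on 0 of 13 and 0 of 10 arrays of cyclic cows. Its bound was under 1, so no fold is given.

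Of the genes of the cytotoxic granule, PRF1 (perforin, which forms pores in the target cell) ran from −0.19 over 0.19 to 1.02 in caruncular tissue of pregnant cows and from −0.91 over −0.35 to 0.04 in that of cyclic cows. All but 1 of the 12 pregnant cows lay above the highest cyclic cow, a log2 difference of 0.71 (SE 0.14, limma adjusted p = 0.000574). In intercaruncular tissue the ratios ran from −0.54 over 0.43 to 1.03 in pregnant and from −0.58 over −0.21 to 0.14 in cyclic cows. The log2 difference of 0.58 (SE 0.14, limma adjusted p = 0.00659) lay just under the 1.5-fold limit.

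NKG7 encodes a membrane protein of cytotoxic granules. In caruncular tissue it ran from −0.10 over 0.90 to 1.24 in pregnant and from −0.61 over −0.11 to 0.77 in cyclic cows, and 7 of the 12 pregnant cows lay above the highest cyclic cow. The log2 difference was 0.75 (SE 0.20, limma adjusted p = 0.00791). In intercaruncular tissue 9 of the 12 pregnant cows lay above the highest cyclic cow. There the ratios ran from −0.55 over 0.29 to 0.65 and from −0.53 over −0.21 to 0.01, a log2 difference of 0.44 (SE 0.12, limma adjusted p = 0.0114) that did not reach 1.5-fold.

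No probe of the granzymes, proteases that perforin lets into the target cell, was called. The GZMA probe was 1.28-fold higher in pregnant cows in caruncular tissue (limma adjusted p = 0.00151) and 1.25-fold higher in intercaruncular tissue (limma adjusted p = 0.0496), under the 1.5-fold limit in both. Its caruncular ratios ran from 0.11 over 0.36 to 0.67 in pregnant and from −0.34 over 0.01 to 0.23 in cyclic cows. The gzmA probe gave larger log2 differences, 0.54 and 0.36, but varied more among cyclic cows (SD 0.97 and 0.72), and neither passed (limma adjusted p = 0.18 and 0.313). The GZMB probe gave −0.25 and −0.24 (limma adjusted p = 0.291 and 0.443), with only 2 and 3 of the 12 pregnant cows above the cyclic mean. GZMB-like gave 0.25 and 0.38 (limma adjusted p = 0.533 and 0.298). With the adjusted p alone, 5 of 8 member probes passed in each tissue, where 26.9% and 20.3% of all tested probes did. The pregnancy effect was then compared between the tissues. The interaction of state and tissue passed for 0 of 8 member probes by limma, where 0.0204% of all tested probes passed, with 0 at an unadjusted p under 0.05, as had 7.37% of all tested probes. The lowest adjusted p was 0.882, for NKG7, so a difference between the tissues was not detected for any member. This fit did not pair the tissues of a cow.

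**Figure D1:**
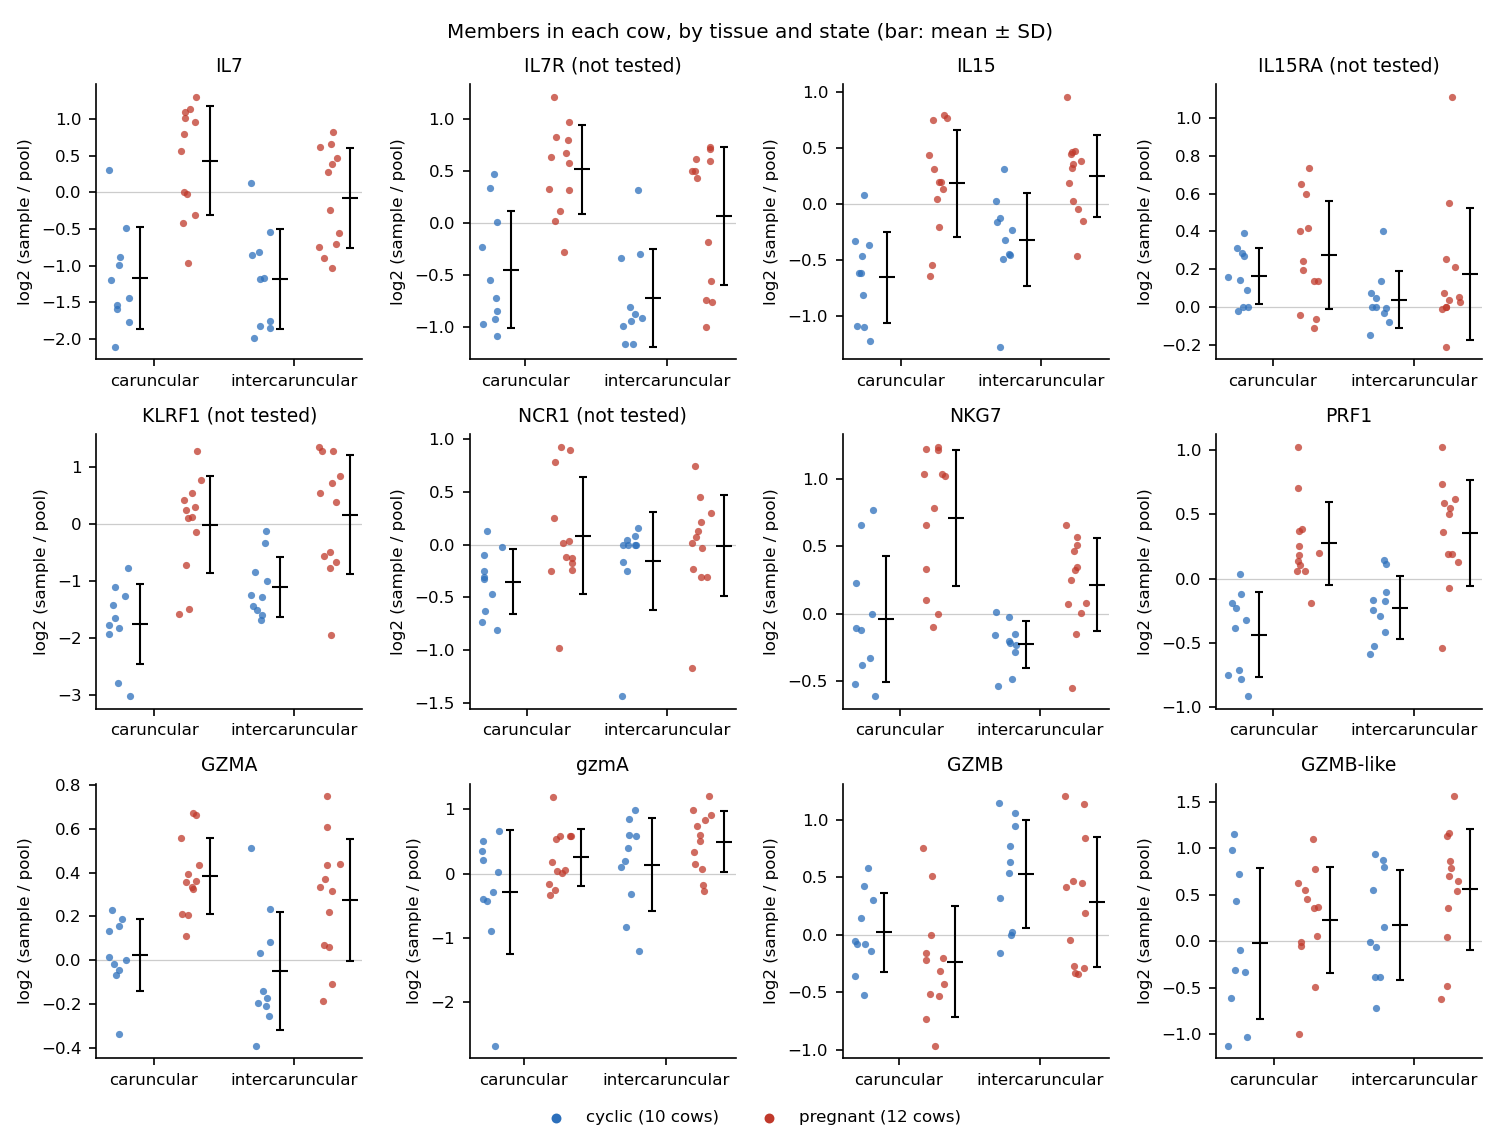
Log2 ratio of each sample to the pool for the 12 member probes, by tissue, in cyclic (blue, 10) and pregnant (red, 12) cows, with bars for mean and SD. IL7, IL15, NKG7 and PRF1 sit higher in pregnant cows with overlap, KLRF1 and IL7R do so at low signal, and the GZMB and GZMB-like groups overlap widely.

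**Figure D2:**
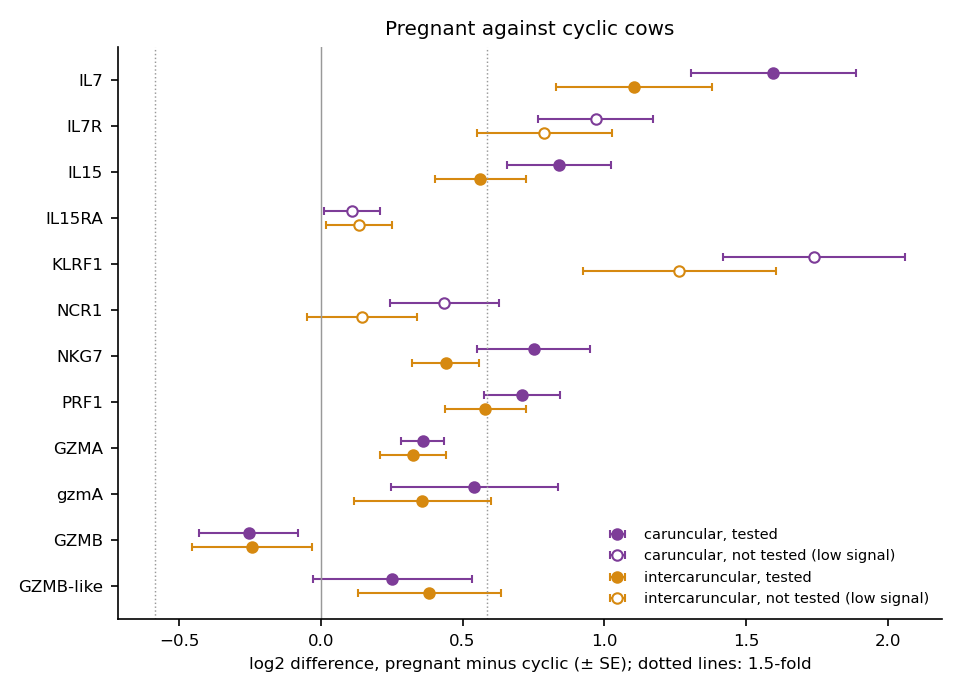
Log2 difference between pregnant and cyclic cows for each member probe in caruncular (purple) and intercaruncular (orange) tissue, with SE, and open circles for probes below the signal filter. IL7 is highest among the tested probes at 1.60 and 1.10, and GZMB lies below 0 in both tissues at −0.25 and −0.24.

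These values come from whole tissue, in which fewer cells of a type and less RNA per cell cannot be told apart. Cow Non-Pregnant_3972 was the single cyclic cow on a slide with 3 pregnant cows in each tissue. All 3 were labelled sub-fertile, so these slides do not compare fertile cows with a cyclic cow. Among all pregnant cows, caruncular NKG7 had a mean of 1.09 in sub-fertile and 0.33 in fertile cows. Caruncular IL7 had means of 0.10 and 0.76 in the same order, and neither difference passed. Within these slides, the mean log2 excess of the pregnant cows was 1.02 (caruncular) and 0.57 (intercaruncular) for IL7, 1.23 and 1.87 for IL15, 1.16 and 0.87 for NKG7, and 0.43 and 0.37 for PRF1. All 3 pregnant cows lay above cow Non-Pregnant_3972 for each of these genes on both slides. Another slide, with caruncular tissue of 2 pregnant cows and 1 cyclic cow, repeat arrays included, gave 1.69 for IL7, 1.10 for IL15, 0.30 for NKG7 and 0.48 for PRF1. When slide was a fixed block, the pregnancy difference in each tissue was that of the 3 pregnant cows from cow Non-Pregnant_3972 alone. This cow stood apart from the other cyclic cows in caruncular gzmA (−2.68) and intercaruncular IL15 (−1.27). The differences of caruncular gzmA (3.16) and intercaruncular IL15 (1.87) in that fit rest on it. Caruncular IL15 (1.23) and NKG7 (1.16) differed by more there than in the main fit. Caruncular IL7 (1.02) and PRF1 (0.43) and intercaruncular IL7 (0.57) differed by less. Calls gained or lost in that fit compare with 1 cyclic cow in each tissue. GZMB was at 0.36 and GZMB-like at −1.37 in caruncular tissue there. Treating slide as a random block left the caruncular count at 4. Intercaruncular IL7 lost its call there (0.89, limma adjusted p = 0.0984) and IL15 was called (0.735, limma adjusted p = 0.0334).

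Of 15 other tested genes of the IL7 and IL15 pathway, 2 were called higher in pregnant cows in caruncular tissue, where 5.77% of all tested probes were, namely BCL2L11 (BIM, which promotes apoptosis) at a log2 difference of 1.08 and MCL1 (a survival protein) at 0.79. MCL1 alone was called in intercaruncular tissue, at 0.68, where 3.99% of all tested probes were called higher. JAK3, the kinase bound to the common gamma chain, was lower by limma at −0.56 (adjusted p = 0.00854) and −0.38 (adjusted p = 0.00513), under the 1.5-fold limit. Also under that limit, BCL2 was higher in caruncular tissue (0.42, limma adjusted p = 0.0208) and did not pass in intercaruncular tissue (0.11). TSLP was lower in intercaruncular tissue (−0.40, limma adjusted p = 0.0167) and did not pass in caruncular tissue (−0.27). IL2RG, the common gamma chain itself, gave 0.13 and −0.04, STAT5A 0.09 and −0.01, STAT5B 0.17 and −0.07, and CISH, a feedback target of STAT5, −0.33 and −0.26. None of these passed, and the median of the list was 0.03 in caruncular and −0.13 in intercaruncular tissue.

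Among 19 tested genes of NK and cytotoxic lymphocytes other than the members, 5 were called higher in pregnant cows in caruncular tissue and none lower, against 5.77% of all tested probes called higher. They were FCGR3A (CD16, also on macrophages) at 1.78, the NK receptor KLRB1 at 1.10, the death ligand FASLG at 0.91, NCAM1 (CD56) at 0.70 and the chemokine XCL1 at 0.65. In intercaruncular tissue FCGR3A (1.69), KLRB1 (0.80) and FASLG (0.69) were called, against 3.99% of all tested probes. The receptors KLRD1 (0.50 and 0.47) and KLRK1 (0.40 and 0.31) did not pass. Values below 0 were found for the receptor NCR3 (−0.26 and −0.21), CD96 (−0.17 and −0.07), CTSW (−0.03 and −0.04) and caruncular CD7 (−0.24), none of which passed. The list's median log2 difference was 0.37 in caruncular and 0.33 in intercaruncular tissue.

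Markers of other cells also differed with pregnancy. Of all tested probes, 9.99% in caruncular and 7.24% in intercaruncular tissue were called, and 5.77% and 3.99% were called higher in pregnant cows. None of 11 tested T cell genes was called in either tissue. CD3E gave 0.07 and −0.22 and CD3D 0.34 and 0.31, none of which passed. Under the 1.5-fold limit, TCF7, a transcription factor of T cells, was lower by limma in both tissues (−0.48, adjusted p = 0.0031, and −0.41, adjusted p = 0.0047), and CD2 was higher in caruncular tissue (0.30, adjusted p = 0.0373). None of 5 B cell genes was called. Of 9 macrophage genes, 5 were called higher in caruncular tissue and 4 in intercaruncular tissue, among them FCGR1A (1.63 and 1.07), MSR1 (1.48 and 1.14), AIF1 (1.19 and 0.98) and CSF1R (0.73 and 0.61), with MRC1 (0.65) called in caruncular tissue. The mean log2 ratio of the macrophage list ran from −0.33 to 0.85 in caruncular tissue of pregnant cows and from −1.13 to 0.19 in that of cyclic cows. Of 8 genes of all leukocytes, CD53 was called in both tissues (1.71 and 1.24). PTPRC (CD45) was higher by 0.41 in caruncular tissue (limma adjusted p = 0.0123) and by 0.21 in intercaruncular tissue (adjusted p = 0.247), under 1.5-fold. Also under 1.5-fold, CORO1A (0.56, limma adjusted p = 0.0211), ITGB2 (0.42, adjusted p = 0.0117) and LAPTM5 (0.49, adjusted p = 0.00239) were higher in caruncular tissue. In intercaruncular tissue these gave 0.40, 0.31 and 0.30, and only LAPTM5 passed (limma adjusted p = 0.0457). LCP1 was at −0.24 (adjusted p = 0.213) and −0.36 (adjusted p = 0.0329 by limma), and CD48 and RAC2 did not pass in either tissue. The leukocyte list had a median log2 difference of 0.42 in caruncular and 0.29 in intercaruncular tissue. The mean of that list ran from −0.05 to 0.66 in pregnant and from −0.59 to 0.12 in cyclic cows in caruncular tissue.

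Of 5 smooth muscle genes, 4 were called lower in pregnant cows in each tissue, where 9.99% and 7.24% of all tested probes were called in either direction. They were ACTA2 (−1.48 and −1.38), CNN1 (−1.37 and −1.35), TAGLN (−0.92 and −1.08) and MYH11 (−0.88 and −0.79). The mean of the smooth muscle list ran from −1.56 to 0.41 in caruncular tissue of pregnant and from −0.39 to 1.16 in that of cyclic cows. Of 6 endothelial genes, PECAM1 and TEK were called lower in both tissues. Of 7 epithelial genes, CDH1 and CLDN4 were called higher in both, and KRT18 and KRT19 lower in caruncular tissue. Of 7 stromal genes, COL3A1 was called lower in both tissues, with PDGFRA higher in caruncular tissue and COL1A1 and COL1A2 lower in intercaruncular tissue. The conceptus genes IFNT2 and PAG11 were well above background on 0 of 48 arrays, while 1 probe of PAG1 was above it on all of them and did not pass the test (0.16 and −0.33). Its median signal was 443 and 383 units in pregnant cows and 435 and 354 in cyclic cows, which carry no conceptus. This probe is therefore not read as a conceptus marker. A second probe of PAG1 was above background on 8 of 12 intercaruncular arrays of pregnant cows and 3 of 10 of cyclic cows, at median signals of 33.2 and 14.7 units, and on 1 of 13 caruncular arrays of each state. No red cell gene passed the filter. All 10 tested interferon-stimulated genes were called higher in both tissues, with medians of 3.27 and 2.49. The 7 with the largest caruncular differences were RSAD2, MX2, IFIT2, OAS2, MX1, IFIH1 and ISG15, from 5.46 (RSAD2) to 3.13 (ISG15). The part of any of these cells in the differences of IL7, IL15, NKG7 and PRF1 was not tested.

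Caruncular and intercaruncular endometrium were compared within each state. Both tissues came from the same cows, but the main fit had no cow term, so its p values do not use the pairing. No member was called by limma in cyclic cows (0 of 8, with 1 at an unadjusted p under 0.05, as had 43.6% of all tested probes), where 11.9% of all tested probes were called and 33.5% passed the adjusted p alone. In pregnant cows none was called either (0 of 8, with 2 at an unadjusted p under 0.05, as had 54.6% of all tested probes), where 17.0% were called and 48.5% passed the adjusted p alone. The t-test of the study's methods also called 0 in each state. GZMB was lower in caruncular tissue in both states, by 0.507 in cyclic cows (limma adjusted p = 0.0305) and by 0.518 in pregnant cows (limma adjusted p = 0.0392), on the log2 scale and under the 1.5-fold limit. Its ratios in cyclic cows ran from −0.52 over −0.07 to 0.58 in caruncular and from −0.15 over 0.59 to 1.15 in intercaruncular tissue. NKG7 was higher in caruncular tissue of pregnant cows by 0.50 (limma adjusted p = 0.018), and 8 of 12 caruncular samples lay above the highest intercaruncular sample. In cyclic cows the NKG7 difference was 0.19 (limma adjusted p = 0.365). In the cows with both tissues on one scan date, GZMB gave −0.69 (cow Pregnant_9790) and −0.40 (cow Non-Pregnant_9786), and NKG7 gave 0.71 and 0.92. Treating slide as a random block, the limma adjusted p of GZMB was 0.174 in cyclic and 0.0945 in pregnant cows, and that of NKG7 in pregnant cows was 0.0507.

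The tissues of a cow could also be set beside each other. In all 12 relations, made of 6 genes in 2 states, the caruncular and intercaruncular ratios correlated above 0 among cows. The deviations of the 2 tissues of a cow also correlated, by a median of 0.62 over the cows. Relations above 0 are therefore not taken as a trait of these genes, and the share of all tested probes that would pass is not given. These relations used 1 probe a gene, the brighter one, which for granzyme A was gzmA and for granzyme B was GZMB. In cyclic cows (n = 10), Pearson's r was 0.87 for IL7 (Spearman's rho 0.75), 0.75 for PRF1 (rho 0.82), 0.90 for gzmA (rho 0.85) and 0.77 for GZMB (rho 0.79). The adjusted p by permutation for r was 0.00564, 0.0369, 0.00192 and 0.0277, in that order. In pregnant cows (n = 12), only GZMB passed (r 0.72, rho 0.67, permutation adjusted p = 0.0277), with IL7 at r 0.55 and PRF1 at r 0.31. The unadjusted permutation p was under 0.05 in 7 of the 12 relations. The count of 5 that passed became 2 with slide means subtracted and 1 without the samples first hybridised on the third scan date. Without the 2 cows farthest from the caruncular median, r in cyclic cows was 0.73 for IL7, 0.52 for PRF1, 0.92 for gzmA and 0.66 for GZMB, and for GZMB in pregnant cows it was 0.53. The raw p of these 5 ran from 0.00016 to 0.0154. A difference between pregnant and cyclic cows in these correlations was not tested.

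**Figure D3:**
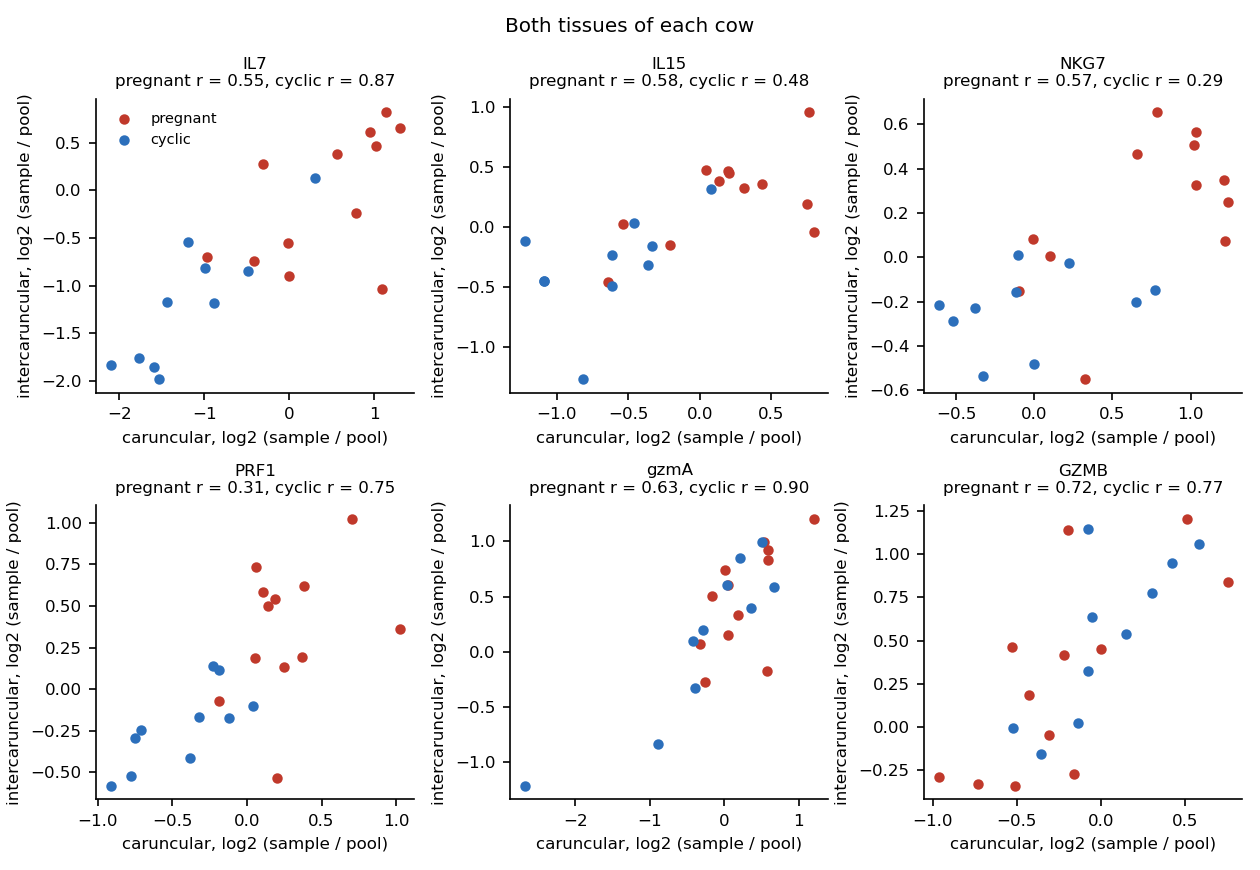
Log2 ratio to the pool in intercaruncular against caruncular tissue of each cow, pregnant (red, 12) and cyclic (blue, 10), for 6 genes. All 12 relations have r above 0 and 5 passed the test, with r highest for gzmA in cyclic cows (0.90) and lowest for NKG7 in cyclic cows (0.29).

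Pregnant cows were next divided by the size of the embryo. In caruncular tissue no member passed an adjusted p under 0.05 by limma (0 of 8, with 0 at an unadjusted p under 0.05, as had 6.9% of all tested probes), and 0.0% of all tested probes did. The lowest adjusted p was 0.743, for gzmA. In intercaruncular tissue 0 of 8 passed, where 3.69% of all tested probes did. An unadjusted p under 0.05 was found for 4 of 8, against 21.6% of all tested probes. These 4 were the cytotoxic genes GZMA, gzmA, NKG7 and PRF1, all higher with a large embryo.

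NKG7 in intercaruncular tissue of the 5 cows with a small embryo measured −0.55, −0.15, 0.01, 0.07 and 0.25. In the 7 cows with a large embryo it ran from 0.08 over 0.47 to 0.65, and 6 of them lay above every cow with a small embryo. The log2 difference was 0.50 (SE 0.14, limma adjusted p = 0.0666). GZMA measured −0.19, −0.11, 0.06, 0.07 and 0.31 with a small embryo and ran from 0.22 over 0.43 to 0.75 with a large one. Again 6 of 7 lay above every cow with a small embryo, and the log2 difference was 0.42 (SE 0.11, limma adjusted p = 0.0565). The gzmA probe measured −0.27, −0.17, 0.07, 0.33 and 0.51 against 0.16 over 0.84 to 1.21, a log2 difference of 0.69 (SE 0.18, limma adjusted p = 0.0568). PRF1 measured −0.54, −0.07, 0.19, 0.36 and 0.55 against 0.13 over 0.58 to 1.03, a log2 difference of 0.44 (SE 0.20, limma adjusted p = 0.21).

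The adjusted p of GZMA, gzmA and NKG7 lay close to the threshold, and the count depended on the fit. Between 0 and 3 probes passed when 1 cow was left out. Leaving out cow Pregnant_9790 gave 3 (GZMA, gzmA and NKG7), leaving out cow Pregnant_3956 gave 1 (GZMA) and leaving out cow Pregnant_3957 gave 1 (gzmA). With fertility as a covariate 1 passed (GZMA, limma adjusted p = 0.0353). IL7 gave 0.69 (limma adjusted p = 0.24), with a large-embryo median of 0.38 against a small-embryo median of −0.70. IL15 gave 0.25 (limma adjusted p = 0.485). IL7R, not tested by the main rule, measured −1.002, −0.76, −0.75, −0.56 and 0.61 with a small embryo and ran from −0.19 over 0.50 to 0.73 with a large one. In the same intercaruncular comparison COL3A1 (−0.92, limma adjusted p = 0.0492) and PECAM1 (−0.93, limma adjusted p = 0.0382) were lower with a large embryo, and the interferon-stimulated gene OAS2 was higher (1.17, limma adjusted p = 0.0382). The macrophage list had values above 0 for 8 of 9 genes (median 0.40) and the leukocyte list for 7 of 8 (median 0.18), and the smooth muscle list had a median of −0.59, with no gene of these 3 lists passing. Their part was not tested.

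The fertility label was compared in the same 12 cows. No member passed in caruncular tissue (0 of 8 by limma, where 0.0% of all tested probes passed, with 1 at an unadjusted p under 0.05, as had 13.8% of all tested probes) or in intercaruncular tissue (0 of 8, where 0.0477% passed, with 0 at an unadjusted p under 0.05, as had 13.6%). NKG7 in caruncular tissue had the lowest adjusted p of the members. It ran from −0.10 over 0.21 to 1.02 in fertile and from 0.78 over 1.12 to 1.24 in sub-fertile cows. All 6 fertile cows lay below the sub-fertile mean, and 1 fertile cow lay within the sub-fertile range. The log2 difference between fertile and sub-fertile cows was −0.75 (SE 0.18), with p = 0.00109 and adjusted p = 0.246 by limma. One slide held both classes in caruncular tissue, with fertile cows at 0.10 and 0.33 and sub-fertile cows at 0.78 and 1.22. The fit that blocks on slide gave −0.79 (limma adjusted p = 0.594). In caruncular tissue 0 of 11 T cell genes (median −0.23) and 1 of 8 leukocyte genes (median −0.24) had values above 0 in fertile against sub-fertile cows, none passing. NKG7 had r of 0.58 and rho of 0.72 with PTPRC among these 12 samples (permutation adjusted p = 0.233 and 0.217, r 0.56 without the 2 farthest cows). Their part was not tested.

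IL7 in caruncular tissue ran from −0.97 over 1.05 to 1.30 in fertile and from −0.41 over −0.01 to 0.79 in sub-fertile cows. In fertile cows 5 of 6 lay between 0.95 and 1.30, above all sub-fertile cows, and cow Pregnant_9246 alone was the lowest of the 12. The log2 difference was 0.65 (SE 0.36, limma adjusted p = 0.429) and turned to −0.21 once slide was a fixed block. Most fertile and sub-fertile cows lay on separate slides, so fertility and slide cannot be told apart for them. KLRF1, not tested by the main rule, had a median of 0.48 in fertile and −0.30 in sub-fertile cows in caruncular tissue, a log2 difference of 1.01 opposite in sign to that of NKG7 (adjusted p = 0.306 in the limma fit without the minimum of 80 units).

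**Figure D4:**
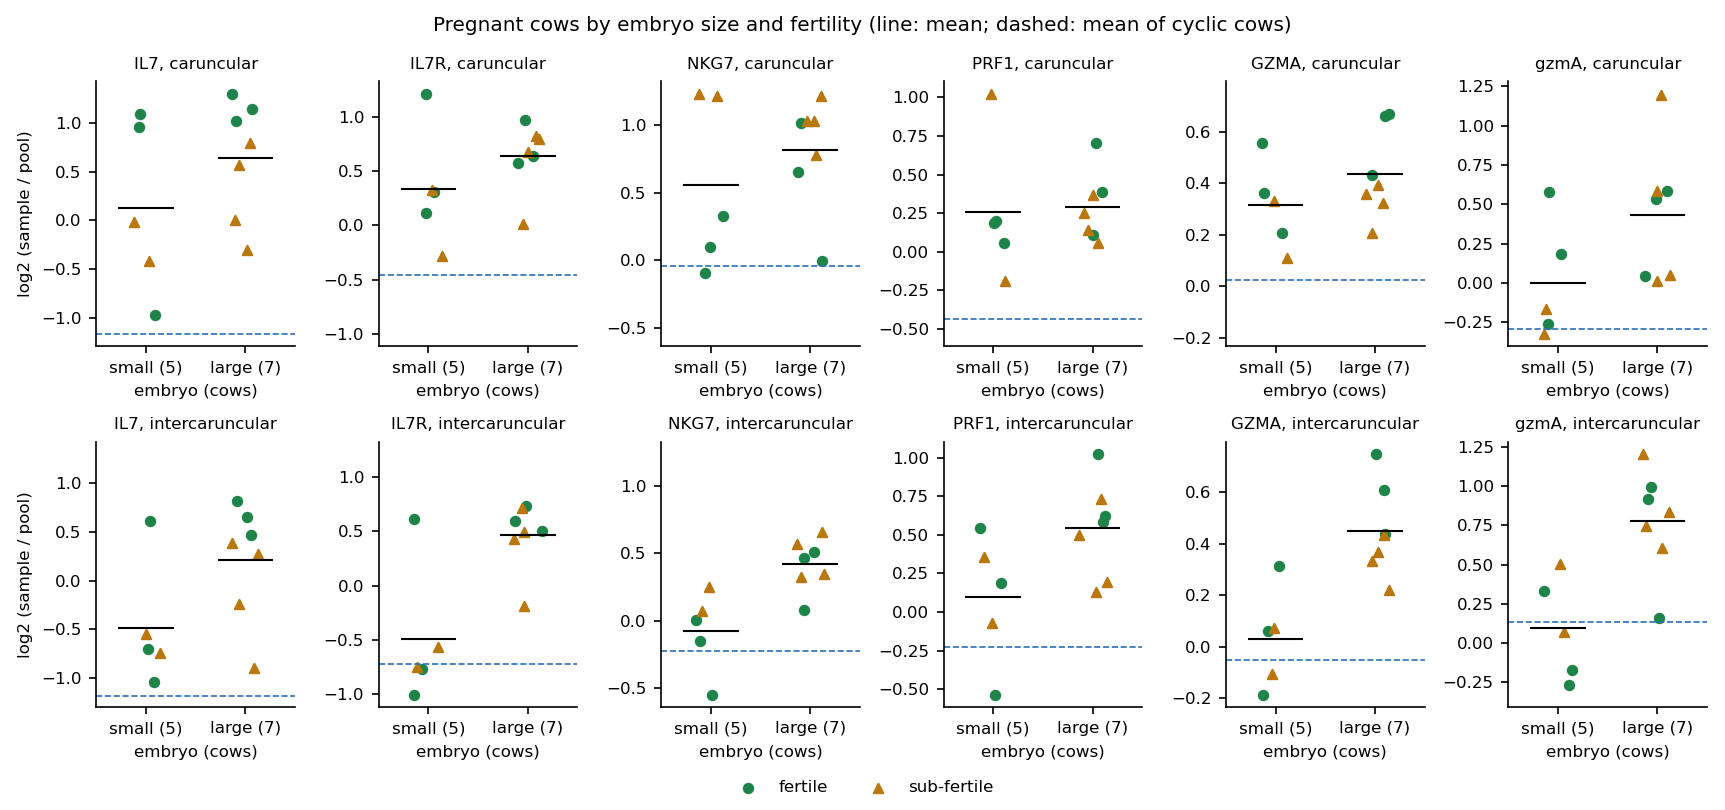
Log2 ratio to the pool in pregnant cows with a small or large embryo, in caruncular (top) and intercaruncular (bottom) tissue, with circles for fertile and triangles for sub-fertile cows, lines for size means and a dashed line for the cyclic mean. In the intercaruncular panels NKG7, GZMA and gzmA sit higher with a large embryo (differences 0.50, 0.42 and 0.69), and caruncular NKG7 sits higher in sub-fertile cows (difference 0.75 from fertile to sub-fertile cows).

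Whether the cytokines varied together with the cytotoxic genes was examined among cows of one state and tissue. There were 36 relations, of IL7 with IL15 and of each cytokine with NKG7, PRF1, gzmA and GZMB in the 4 groups. IL7 and PRF1 correlated in intercaruncular tissue of pregnant cows, with Pearson's r of 0.83 and Spearman's rho of 0.91 (n = 12, permutation p = 0.00036 and 7e-05, adjusted p = 0.013 and 0.00252). This was the 1 relation that passed. The share of all tested probes that would pass with IL7 is not given, so the relation is not taken as particular to these genes. Cow Pregnant_932 was lowest for both (−1.03 and −0.54) and cow Pregnant_1943 highest for both (0.82 and 1.03). Without cows Pregnant_932 and Pregnant_9790, the farthest from the median of IL7, r was 0.79. The same relation had r of 0.80 in caruncular tissue of cyclic cows (permutation adjusted p = 0.0569, r 0.72 without the 2 farthest cows), 0.13 in caruncular tissue of pregnant cows and 0.26 in intercaruncular tissue of cyclic cows. Differences between these correlations were not tested.

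The IL7 and PRF1 relation had r of 0.76 and rho of 0.67 when the mean of each slide was subtracted, which leaves out the cow alone on its slide (n = 11, permutation adjusted p = 0.32 and 0.399). It had r of 0.76 and rho of 0.76 with the mean of each embryo size subtracted (permutation adjusted p = 0.117 and 0.129). Markers of all leukocytes and of T cells were set beside these genes in the same 12 samples, and no relation passed. PRF1 had r of 0.76 with PTPRC and 0.68 with CD3E, and IL7 had r of 0.48 and 0.57 (permutation adjusted p = 0.138 to 0.285 over 72 relations added after the data were seen). Each of these rests on the cows at the ends, and without the 2 farthest r was 0.33, 0.43, 0.07 and 0.05 in the same order. Their part in the IL7 and PRF1 relation was not tested. Of the 36 relations, 4 had an unadjusted permutation p under 0.05, and 21 were above 0. Besides IL7 and PRF1 in the tissues named, these were IL7 and NKG7 in caruncular tissue of cyclic cows (r 0.76, rho 0.76, permutation adjusted p = 0.117) and IL7 and IL15 in intercaruncular tissue of pregnant cows (r 0.61, rho 0.44, permutation adjusted p = 0.295). Without the 2 farthest cows r was 0.74 and 0.40.

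In the other groups IL7 and IL15 had r of 0.47 in caruncular tissue of pregnant cows, 0.07 in that of cyclic cows and −0.37 in intercaruncular tissue of cyclic cows. IL15 had no relation to a cytotoxic gene that passed the test, and its r ran from −0.51 (GZMB, caruncular, pregnant) to 0.57 (GZMB, intercaruncular, cyclic). IL7 with its receptor gene IL7R, added after the data were seen and over 44 relations, had r of 0.75 and rho of 0.81 in intercaruncular tissue of pregnant cows (permutation adjusted p = 0.0858 and 0.0321). IL7 with KLRF1 had r of 0.78 and rho of 0.89 there (permutation adjusted p = 0.0642 and 0.00704). Both receptor probes lie below the minimum of 80 units in many samples. Among the cytotoxic genes themselves no relation passed, and the highest was NKG7 with PRF1 in caruncular tissue of cyclic cows (r 0.84, rho 0.77, permutation adjusted p = 0.0846). PRF1 and GZMB ran in opposite directions in cyclic cows, with r of −0.68 (rho −0.76) in caruncular and −0.65 (rho −0.73) in intercaruncular tissue. The permutation adjusted p for r was 0.233 in both. In pregnant cows r was −0.26 and 0.04 for this pair. Of the 72 relations 14 had an unadjusted permutation p under 0.05.

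**Figure D5:**
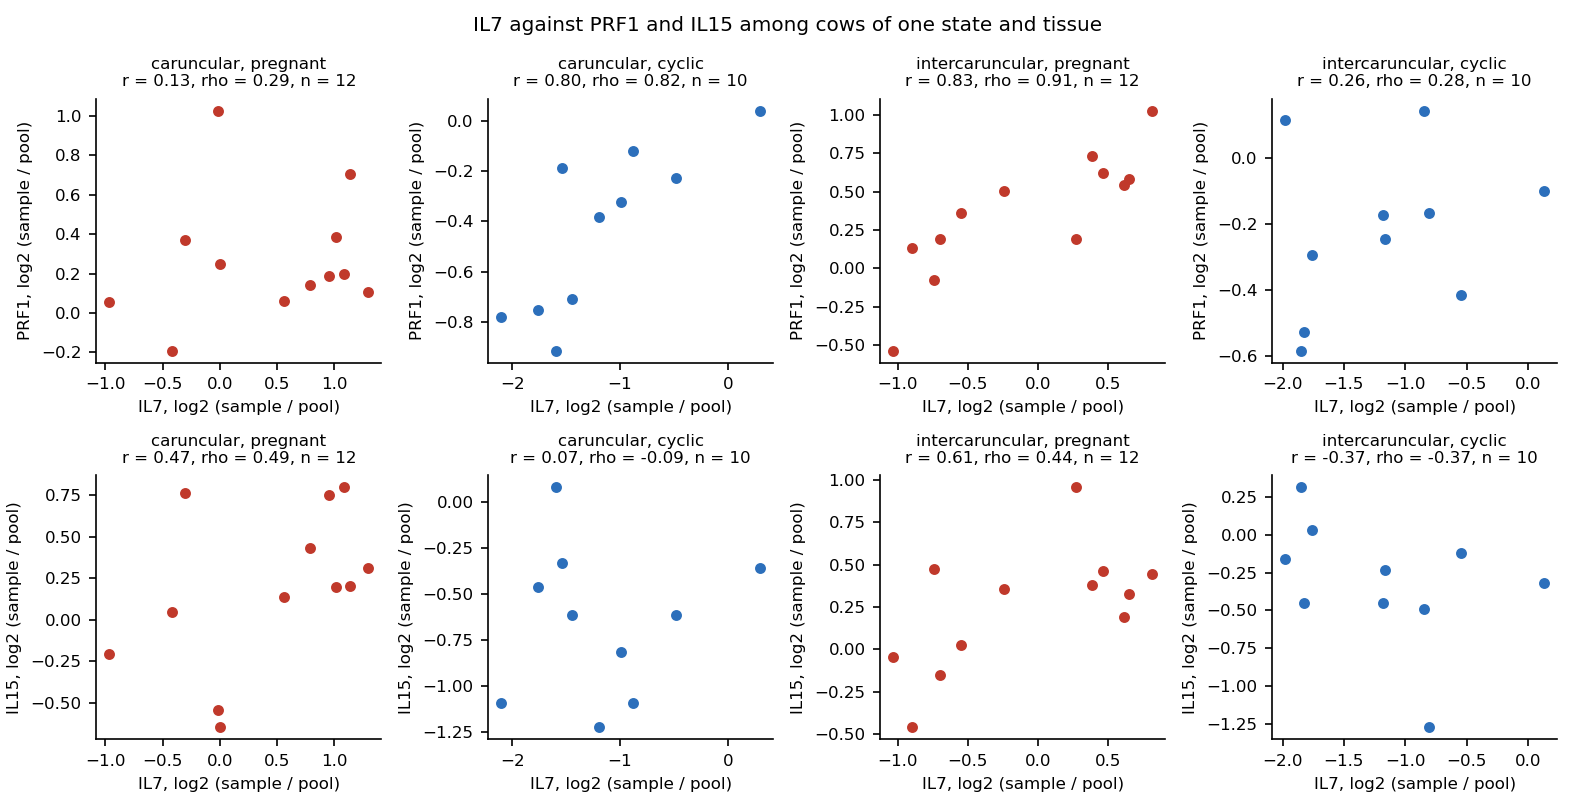
PRF1 (top) and IL15 (bottom) against IL7 in single cows, as log2 ratios to the pool, in the 4 groups of tissue and state. Points rise together for IL7 and PRF1 in intercaruncular tissue of pregnant cows (r = 0.83) and caruncular tissue of cyclic cows (r = 0.80), and no such run is seen for IL7 and IL15 in cyclic cows (r = 0.07 and −0.37).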

How the data were processed

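Amplified RNA (aRNA) of each sample (Cy5) and of a pool of all samples (Cy3) was hybridised to 2-colour arrays without dye swaps. Per the file headers, the authors deposited background-subtracted, dye-normalised log10 ratios and spot intensities from Feature Extraction 9.5.3.1, and a log2 ratio matrix used here as an alternative. Log10 ratios were turned into log2, spots of a probe and repeat arrays of a sample were averaged, and the array median was subtracted. This median was already 0 in all 48 arrays. A probe was kept when 22 or more of the 44 samples had it well above background with a signal of 80 units or more, and 14690 of 21475 passed. The study's methods apply a flag filter (present or marginal) and the 80 units one after the other over arrays, so its set of probes can differ. The number of arrays limits the precision.

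limma 3.58.1 (R 4.3.3) was fitted on all tested probes with Benjamini-Hochberg adjustment, in place of the t-test of the methods. Adjusted p values come from limma, or from permutation (100000 resamples, two-sided, smallest p 1e-05; scipy 1.17.1) for correlations. Cow numbers pair the tissues, since both samples came from the same animal. Their deviations correlated by 0.11 to 0.87, and 21 of 22 cows matched their own best. The main fits between tissues and of the interaction had no cow term, and the cow as a block was an alternative.

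The members and the 13 gene lists were chosen with earlier results of these data known. Named were all member probes, for pregnancy the called genes of each list (at most 8) and its defining genes, for other comparisons called list genes only beside a result they touch, and the 3 genes most like 5 of the members. Of the genes this rule names, 2 are not reported here. Probe sequences come from the supplement of the study. Alternatives were normexp with loess, other filters and centring, slide, scan date and cow as blocks, the deposited matrix, the methods' t-test and single cows left out. The scripts were tested on simulated data.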

Additional observations from a re-analysis of the deposited data

Results flagged for a closer look

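In 5 of 80 groups of cows examined, the lowest cow stood apart from the others by more than the 95% critical value of Dixon's test, and chance gives this in about 1 of 20 groups. IL7 in caruncular tissue was −0.97 in fertile cow Pregnant_9246 on the log2 scale, with the other 5 fertile cows between 0.95 and 1.30. Cow Non-Pregnant_3972 was lowest in 3 of the 5. It had IL15 at −1.27 in intercaruncular tissue (others −0.49 to 0.31), GZMA at −0.34 in caruncular tissue (others −0.07 to 0.23) and gzmA at −2.68 in caruncular tissue (others −0.90 to 0.66). This is also the single cyclic cow on the slides shared with 3 pregnant cows. GZMB-like in caruncular tissue was −1.001 in cow Pregnant_3803, with the other cows carrying a large embryo between −0.05 and 0.55.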

How the results depend on the processing

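The caruncular count of 4 called members fell to 1 with the slide as a fixed block. The intercaruncular count of 1 became 2 with normexp and loess or with centring on the tested probes, 3 with no filter or with the background rule alone, and 0 with the stricter filter, under which 5 member probes remained. In that stricter fit IL7 was not tested. With the background rule alone, IL7R and KLRF1 were also called in both tissues, but both had reached that rule mainly through pregnant cows. For large against small embryo in intercaruncular tissue, the count of 0 became 2 with normexp and loess or the slide as a random block, 1 with the stricter filter or the fertility class as a covariate, and 0 to 3 when 1 cow was left out (3 without cow Pregnant_9790). The count of 1 cytokine relation became 0 with slide means or embryo size means subtracted. The count of 5 tissue relations became 2 with slide means subtracted and 1 without the samples of the third scan date. Pregnancy differences changed sign with the slide as a fixed block for GZMB (0.36 caruncular, 0.73 intercaruncular) and GZMB-like (−1.37 and −0.46), and caruncular GZMB reached 0.0009 over every array with slide and cow blocks. IL7 between fertility classes turned to −0.21 and −0.78. The causes were not tested, beyond the fewer cows that inform the fixed block. Of 500 values of single members, 471 kept direction and side of the threshold, 16 came to pass it, 6 ceased to and 7 changed sign. With the cow as a replicate block the member counts between tissues and for the interaction stayed at 0 called. Signal limited IL7R, IL15RA, KLRF1 and NCR1, which passed the filter in 6, 1, 16 and 0 of 44 samples.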

Other observations

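The genes whose caruncular ratios ran most closely with a member were sought over 22 samples, after the mean of each state was subtracted, among 11447 genes. These correlations are descriptions across samples that share slides and a reference pool. SAMSN1 (r 0.87) and MIER1 (0.82) were among the closest to IL7. GRAMD1C (0.94), SDHD (0.90) and UQCRC2 (0.89) were closest to IL15, and the last 2 encode subunits of the mitochondrial respiratory chain. CCL5 (0.74), a chemokine of cytotoxic lymphocytes, CST7 (0.74), an inhibitor of granule proteases, and DENND1C (0.70) were closest to PRF1. For the dim probes, KIAA0830 (0.79), NIP7 (0.75) and CNOT6L (0.72) were closest to IL7R, and POLR1C (0.75), SAP18 (0.73) and GLRX2 (0.71) to KLRF1. The CLECL1 probe, which the array annotation describes as similar to KLRF1, was higher in pregnant cows by 1.13 in caruncular (limma adjusted p = 7.91e-05) and 1.00 in intercaruncular tissue (limma adjusted p = 0.00457) on the log2 scale.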
